A study of Mus musculus with 140 samples.

Results

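A silencer is a stretch of DNA that lowers the transcription of a gene, as an enhancer raises it. Silencers act from promoters, from introns or from the sequence between genes, and are thought to work by recruiting repressor proteins and corepressors. The sequence just upstream of a promoter holds many distal regulatory elements, and it is also rich in short interspersed repeats in mammals, such as the B1 and B2 elements of the mouse. The intervals described here are the listed silencers that lie there. An interval was taken when its midpoint lay 2 to 10 kb upstream, by strand, of the start site of a protein-coding gene and outside every gene body (mm10, GENCODE M21 basic annotation, autosomes). This gave 5385 of 112874 autosomal intervals of the mouse embryonic stem cell (mESC) list (4.77%) and 4064 of 87806 autosomal intervals of the mouse embryonic fibroblast (MEF) list (4.63%), or 9449 of 200680 in all. By construction all of their midpoints were intergenic. The whole interval lay in the window, outside gene bodies, for 5186 of the mESC and 3917 of the MEF intervals.

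The study screened mouse silencers by Ss-STARR-seq, in which sheared mouse genomic DNA is cloned into a reporter plasmid, the plasmid pool is transfected and the reporter RNA is sequenced beside the pool. The labels describe 140 libraries. Reporter RNA of mESCs, pluripotent cells grown in N2B27 medium with LIF and the kinase inhibitors CHIR99021 and PD0325901, gave 56 libraries. Reporter RNA of MEFs, connective tissue cells grown in serum, gave 64 libraries, and the input plasmid pool gave 20. No genotype, strain or age is given for either cell type, and a plasmid reporter tests a fragment away from its own chromosomal position. The data analysed were 1 interval list per cell type with a linear fold for each interval, always above 2. The labels do not say how the fold was formed from the libraries. A high fold is therefore read as a rank within a list and not as a measured strength. No library's own values were in the lists, so no comparison between cell types had a replicate check, and the 95% intervals below cover counting error only.

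The fold values recurred often. The mESC list held 3584 distinct fold values, and 4977 of the 5385 upstream intervals (92.4%) carried a value that occurred at least 10 times in the list. So did 94.4% of the other mESC intervals. The commonest single value, 2.71, was carried by 192 upstream intervals (3.57%) and by 3.53% of the others. The MEF list held 3068 distinct values. Of the 4064 upstream MEF intervals 3773 (92.8%) carried such a recurring value, against 93.9% of the others. The commonest one, 2.72, was carried by 135 upstream MEF intervals (3.32%) and by 3.40% of the others. In both lists the commonest value was 1.33 times the next commonest. Read counts were not part of the lists, and the depth of each fold is not known.

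The sequences that follow show what kind of DNA was listed, and each is given from the forward strand of mm10 with the RUNX site (TGTGGTT on either strand) and the core of the CTCF site in capitals. The first set holds the upstream interval with the highest fold in mESCs and 3 of those with a high fold in both cell types. The Dock2 interval lies at chr11:34787280-34787517, the Adam22 interval at chr5:8372215-8372515, the Olfr824 interval at chr10:130138035-130138183 and the Ogfrl1 interval at chr1:23401501-23401801.
Dock2, mESC: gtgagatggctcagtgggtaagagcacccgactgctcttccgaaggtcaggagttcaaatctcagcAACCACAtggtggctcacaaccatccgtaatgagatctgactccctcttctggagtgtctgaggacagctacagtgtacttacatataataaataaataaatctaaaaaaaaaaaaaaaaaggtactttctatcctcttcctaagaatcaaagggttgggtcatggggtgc
Adam22, mESC: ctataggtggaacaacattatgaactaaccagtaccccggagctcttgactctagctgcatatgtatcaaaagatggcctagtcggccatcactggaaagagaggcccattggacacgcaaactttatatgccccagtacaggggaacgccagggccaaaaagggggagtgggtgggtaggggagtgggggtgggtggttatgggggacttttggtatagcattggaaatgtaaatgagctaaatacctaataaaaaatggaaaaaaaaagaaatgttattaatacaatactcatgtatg
Olfr824, mESC: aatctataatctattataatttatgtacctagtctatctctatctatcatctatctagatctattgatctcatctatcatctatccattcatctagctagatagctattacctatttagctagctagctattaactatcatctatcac
Ogfrl1, mESC: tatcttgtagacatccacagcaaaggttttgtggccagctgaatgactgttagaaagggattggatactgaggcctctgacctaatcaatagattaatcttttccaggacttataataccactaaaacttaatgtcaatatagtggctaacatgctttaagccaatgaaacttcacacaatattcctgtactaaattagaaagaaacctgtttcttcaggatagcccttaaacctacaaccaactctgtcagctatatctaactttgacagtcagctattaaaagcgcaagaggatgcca

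The Dock2 interval held the RUNX site. It shared at least one 24-base word with 514 other mESC and 245 MEF upstream intervals, words of simple repeats and the interval that overlaps it in the MEF list left out. The Adam22 interval shared one with 78 mESC and 47 MEF upstream intervals. Both hold sequence that recurs upstream of many genes. The Olfr824 and Ogfrl1 intervals shared no such word with any upstream interval other than the MEF interval that overlaps each (0 in both lists). With words of simple repeats left out, 78 words of the Olfr824 interval and 277 of the Ogfrl1 interval were compared. The 0 at Olfr824 therefore does not cover its simple repeats. Only 6.33% of the Ogfrl1 interval was repeat-masked, beside 48.0% of the Olfr824 interval, 83.5% of the Dock2 interval and 100% of the Adam22 interval.

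A second set shows intervals upstream of genes of the cell states under study. Nanog encodes a transcription factor of pluripotency, Cdh1 encodes E-cadherin, the epithelial adhesion protein gained during reprogramming, and Col3a1 encodes a fibrillar collagen of fibroblasts. The intervals lie at chr6:122704351-122704701, chr8:106595737-106596218 and chr1:45307649-45307899. The central 300 bases are shown where an interval was longer.
Nanog, mESC: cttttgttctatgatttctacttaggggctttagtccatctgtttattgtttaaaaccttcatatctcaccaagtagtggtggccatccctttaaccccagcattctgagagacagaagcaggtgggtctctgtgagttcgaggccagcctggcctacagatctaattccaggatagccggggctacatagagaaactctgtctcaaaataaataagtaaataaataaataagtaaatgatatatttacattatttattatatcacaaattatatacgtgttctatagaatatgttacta
Cdh1, mESC: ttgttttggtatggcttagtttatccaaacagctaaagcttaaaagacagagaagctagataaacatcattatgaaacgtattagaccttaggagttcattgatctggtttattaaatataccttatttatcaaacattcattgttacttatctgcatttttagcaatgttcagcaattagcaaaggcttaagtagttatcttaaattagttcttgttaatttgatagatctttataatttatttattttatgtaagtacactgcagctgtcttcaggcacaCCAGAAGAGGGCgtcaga
Col3a1, mESC: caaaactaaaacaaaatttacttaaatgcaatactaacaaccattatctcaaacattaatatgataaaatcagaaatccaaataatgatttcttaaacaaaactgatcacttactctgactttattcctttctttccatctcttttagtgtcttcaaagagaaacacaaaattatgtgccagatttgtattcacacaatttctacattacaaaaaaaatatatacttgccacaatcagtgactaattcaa

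In this set the Cdh1 interval held a CTCF core, and the Nanog and Col3a1 sequences held neither site.

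Silencer intervals were denser 2 to 10 kb upstream of genes than over the autosomes as a whole. The mESC list had 56.2 intervals per Mb of upstream sequence (95% Poisson interval 54.7 to 57.7), against 47.1 per Mb of all autosomal sequence, a ratio of 1.19. The MEF list had 42.4 per Mb (41.1 to 43.7) upstream against 36.6 per Mb, a ratio of 1.16. The upstream sequence counted in this way came to 95.9 Mb. The ratio was above 1 on 18 of 19 autosomes in each list. It was lowest on chromosome 14 in both, at 0.961 in mESCs and 0.960 in MEFs, and highest at 1.43 on chromosome 12 in mESCs and at 1.37 on chromosome 18 in MEFs.

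Density differed between the sides of the gene. Sequence 2 to 10 kb downstream of gene ends, and not upstream of another gene, held 48.6 mESC intervals per Mb (47.0 to 50.2) and 36.8 MEF intervals per Mb (35.4 to 38.2). Upstream density was therefore 1.16 times the downstream density in mESCs and 1.15 times in MEFs, and the intervals did not overlap. In sequence that lay upstream of one gene and downstream of another, the density was 58.0 per Mb (54.3 to 61.8) in mESCs and 41.4 per Mb (38.4 to 44.7) in MEFs. Bodies of protein-coding genes held 49.6 and 38.4 per Mb, sequence over 10 kb from any protein-coding gene 44.3 and 34.9 per Mb, and sequence within 1 kb of a start site 28.9 and 21.3 per Mb, in mESCs and MEFs in that order.

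**Figure D1:**
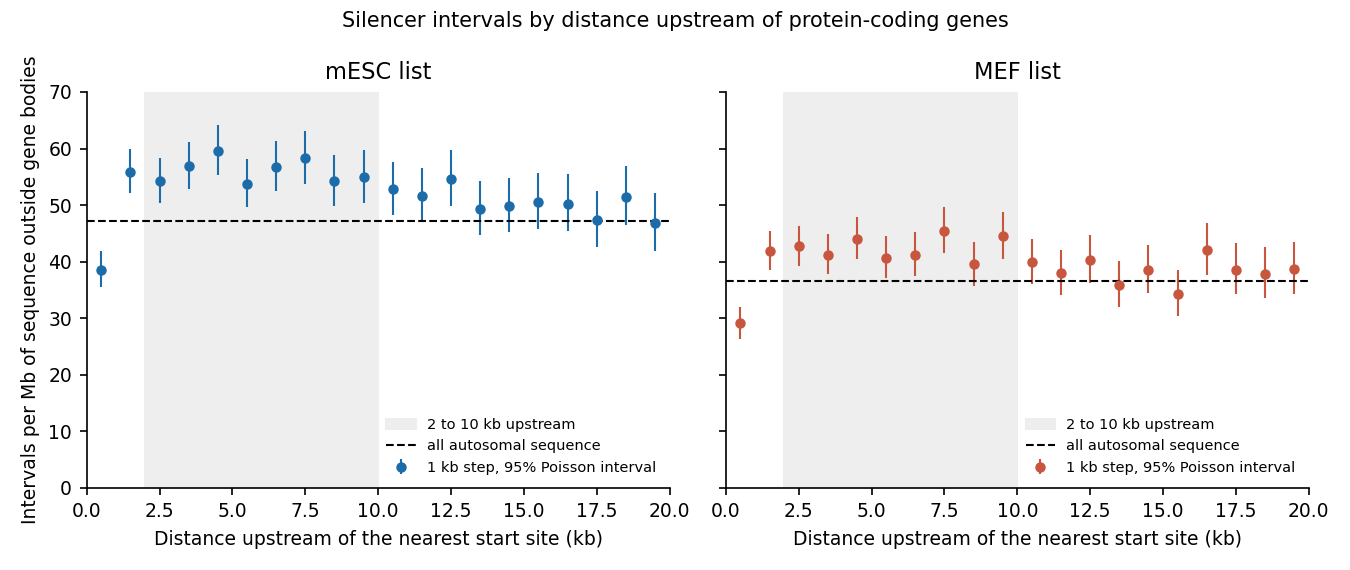
Intervals per Mb of sequence outside gene bodies (y axis) in 1 kb steps of distance upstream of the nearest protein-coding start site (x axis, kb), for the mESC list (left) and the MEF list (right). Points are densities with 95% Poisson intervals, the shaded span is the 2 to 10 kb window and the dashed line is the density of all autosomal sequence. The first step, 0 to 1 kb, lies lowest in the near range, at 38.6 per Mb in mESCs and 29.1 per Mb in MEFs.

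The density did not follow a gradient inside the window. Its 8 steps of 1 kb ranged from 53.8 to 59.6 per Mb in mESCs and from 39.5 to 45.4 per Mb in MEFs, with overlapping Poisson intervals in the plot of density by distance. The step next to the start site was lower, at 38.6 per Mb in mESCs, which was 0.688 times the density of the window (0.632 to 0.746), and at 29.1 per Mb in MEFs, 0.686 times (0.622 to 0.753). From 1 to 2 kb the densities were 55.9 per Mb in mESCs and 41.9 per Mb in MEFs, close to those of the window itself. From 10 to 20 kb they were 50.6 and 38.4 per Mb. The median distance of an upstream interval to its nearest start site was 5612 bp in mESCs and 5641 bp in MEFs.

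The intervals nearest to the limits of the rule are given as a description. The 3 mESC intervals just inside 2 kb lay at 2000 bp and had folds of 2.26 to 3.39, and the 3 just outside lay at 1996 to 1998 bp with folds of 2.20 to 3.67. At 10 kb, the 3 inside lay at 9989 to 9999 bp with folds of 2.20 to 3.61, and the 3 outside at 10002 to 10006 bp with folds of 2.09 to 3.10. In MEFs the folds were 2.06 to 2.17 inside and 2.23 to 2.66 outside at 2 kb, and 2.06 to 3.01 inside and 2.04 to 2.16 outside at 10 kb.

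The difference from the autosomes as a whole was larger in repeated than in other sequence. The reference assembly marks repeated sequence in lower case (soft-masked), and 39.3% of upstream sequence was so marked, against 33.5% of all autosomal sequence, 38.4% of sequence 2 to 10 kb downstream and 39.2% of sequence over 10 kb from any protein-coding gene. In soft-masked sequence the upstream density was 74.5 per Mb (71.8 to 77.3) in mESCs and 54.2 per Mb (51.8 to 56.6) in MEFs, which was 1.28 and 1.27 times the density of all soft-masked autosomal sequence. Soft-masked bodies of protein-coding genes came close, with 70.6 per Mb (69.6 to 71.6) in mESCs and 51.6 per Mb (50.7 to 52.4) in MEFs. That was 1.21 times the autosomal density in each list, and in MEFs the interval overlapped that of upstream sequence. In unmasked sequence it was 44.3 per Mb (42.6 to 46.0) in mESCs against 41.5 over the autosomes, a ratio of 1.07. In MEFs it was 34.8 per Mb (33.3 to 36.3) against 33.7, a ratio of 1.03 whose interval, 0.988 to 1.08, included 1. Upstream density stayed above downstream density in both kinds of sequence, by ratios of 1.14 unmasked and 1.16 soft-masked in mESCs and of 1.09 and 1.21 in MEFs. The 95% intervals of the MEF densities in unmasked sequence overlapped, 33.3 to 36.3 upstream and 30.2 to 33.5 downstream.

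**Figure D2:**
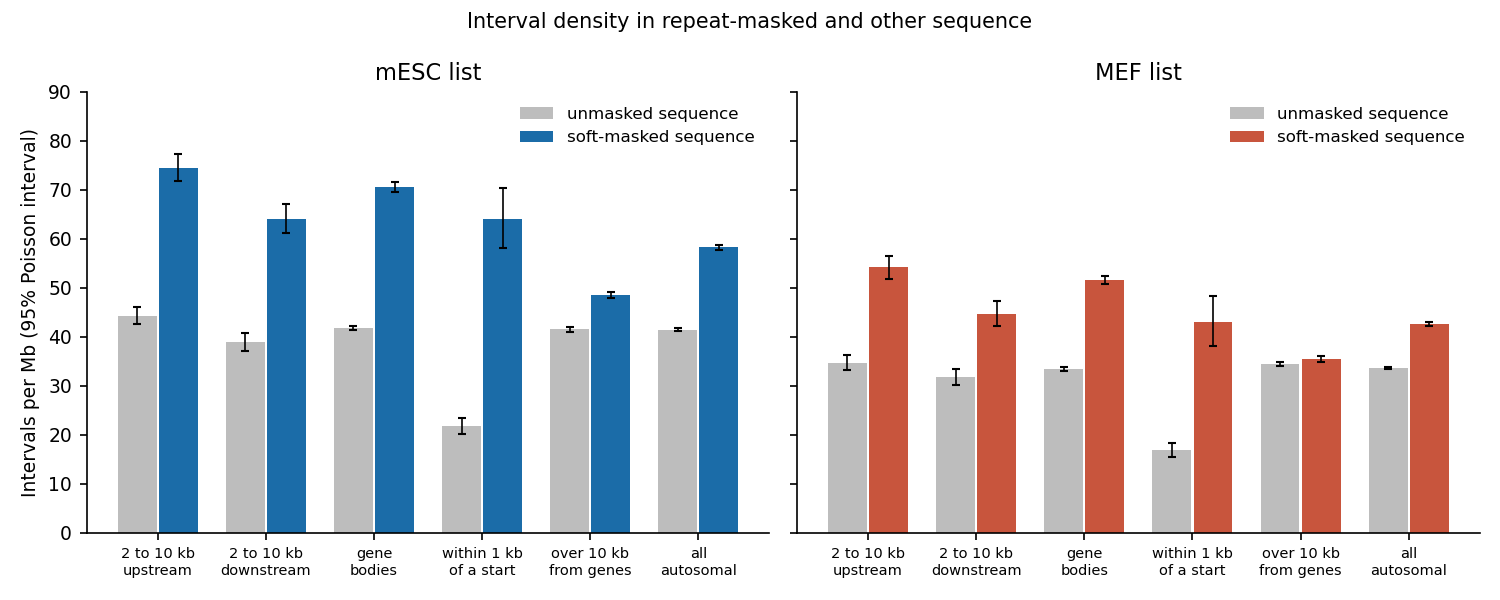
Intervals per Mb (y axis, bars from 0, with 95% Poisson intervals) in 6 kinds of autosomal sequence (x axis), for the mESC list (left) and the MEF list (right). Grey bars are unmasked and coloured bars soft-masked sequence. Soft-masked upstream sequence has the highest bar in both lists, 74.5 per Mb in mESCs and 54.2 per Mb in MEFs. Soft-masked gene bodies come close, with 70.6 and 51.6 per Mb, while soft-masked sequence over 10 kb from genes has 48.5 and 35.5 per Mb.

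The upstream intervals held more repeats than all the other intervals, and close to as many as those 2 to 10 kb downstream. On average 51.3% of an upstream mESC interval was soft-masked, against 40.2% of the other autosomal mESC intervals, and 48.9% against 37.9% in MEFs. The intervals downstream had 50.1% in mESCs and 46.8% in MEFs. The upstream mean was higher than that of all other intervals on 19 of 19 autosomes in each list. Fully masked intervals made up 13.2% of upstream mESC intervals (12.3 to 14.1) against 9.89% of the others, and 12.7% (11.7 to 13.8) against 9.10% in MEFs. Downstream, the fully masked made up 13.0% in mESCs and 12.4% in MEFs. Intervals with no masked base made up 10.7% against 17.2% in mESCs and 12.7% against 18.9% in MEFs. GC content averaged 41.4% upstream against 40.2% elsewhere in mESCs, and 41.1% against 40.0% in MEFs, below the 43.3% of all upstream sequence. Downstream intervals averaged 41.4% and 40.8%. Intervals without a single CpG, the dinucleotide that carries most DNA methylation, made up 31.7% against 35.2% in mESCs and 32.1% against 35.4% in MEFs. The median length was 200 bp upstream and elsewhere in both lists.

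For 21 sequence motifs, read from either strand of the 300 bp around each midpoint, the largest differences were those of the RUNX and CTCF sites. RUNX proteins are DNA-binding factors that can recruit Groucho/TLE corepressors, and CTCF is the zinc finger protein that anchors chromatin loops and insulates promoters. The RUNX site stood in 18.6% of upstream mESC windows (17.5 to 19.6) against 11.5% of the other mESC windows, and in 15.6% of upstream MEF windows (14.5 to 16.7) against 10.1%. The CTCF core (CCA, any 2 bases, AG, any 2 bases, GGC) stood in 7.69% (6.99 to 8.43) against 3.87% in mESCs and in 6.84% (6.08 to 7.66) against 3.38% in MEFs. The CTCF share was higher upstream on 18 of 19 autosomes in mESCs and on 19 in MEFs, and the RUNX share on 19 in mESCs and on 17 in MEFs. A match is a description of letters and not a bound site.

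Smaller differences had 95% intervals that excluded 0 in both lists for CpG, for the CAGGTG box read by SNAI and ZEB repressors, for the AP-1 site (TGANTCA) and for the SOX site (ACAANG). A CpG stood in 84.6% of upstream against 81.6% of other windows in mESCs and in 85.5% against 82.0% in MEFs. The CAGGTG box stood in 17.1% against 15.3% in mESCs and in 16.3% against 15.1% in MEFs. The AP-1 site was less frequent upstream, in 7.15% against 8.23% in mESCs and in 8.19% against 9.32% in MEFs, as was the SOX site, in 47.9% against 49.7% and in 48.2% against 50.8%. Not all of these calls held with whole intervals in place of 300 bp windows, or in windows under 50% soft-masked. With whole intervals the SOX difference included 0 in mESCs (-0.538 points, -1.84 to 0.787) and in MEFs (-1.13 points, -2.63 to 0.391), and the AP-1 difference included 0 in MEFs (-0.617 points, -1.34 to 0.183). In windows under 50% soft-masked the intervals of SOX in mESCs (-1.25 points, -3.19 to 0.681), AP-1 in MEFs (-0.625 points, -1.85 to 0.746) and CAGGTG in MEFs (0.498 points, -0.966 to 2.09) included 0. The half-site of REST, the repressor of neuronal genes (CAGCACC), stood in 5.87% against 4.84% in mESCs and in 5.44% against 5.45% in MEFs. The KLF site (GGGTGTGG), which shares letters with the RUNX site, stood in 2.58% against 2.04% in mESCs and in 2.26% against 1.86% in MEFs. The TEAD site (GGAATG) stood in 15.4% against 16.4% in mESCs and in 14.9% against 16.2% in MEFs. Its direction turned in windows under 50% soft-masked, with 17.7% against 15.8% in mESCs (1.97 points, 0.535 to 3.49) and 16.3% against 16.0% in MEFs (0.294 points, an interval that included 0). The BCL6/STAT site (TTCNNNGAA) stood in 8.43% against 9.11% and in 7.90% against 9.72%. In all, the interval of the difference excluded 0 for 10 motifs in mESCs (7 higher and 3 lower upstream) and for 8 in MEFs (4 higher and 4 lower). Of the motifs named so far, those of REST and KLF were among the 10 alone, and those of TEAD and BCL6/STAT among the 8 alone. These memberships depended on the window. With whole intervals the REST and KLF differences excluded 0 in MEFs too (0.815 points, 0.176 to 1.54, and 0.544 points, 0.156 to 1.02), that of TEAD excluded 0 in mESCs (-1.06 points, -1.89 to -0.166) and not in MEFs, and that of BCL6/STAT included 0 in both lists. The ZFP57 hexamer (TGCCGC), higher upstream, and the GATA site (AGATAAG), lower, completed the 10, and the GATA difference was -0.0788 points (-0.528 to 0.435) with whole intervals. The octamer site of POU factors such as Oct4 (ATGCAAAT) stood in 2.15% of upstream against 2.54% of other mESC windows and in 2.12% against 2.54% in MEFs, and both differences had intervals that included 0. With whole intervals they excluded it, at -0.427 points (-0.727 to -0.0609) in mESCs and -0.498 points (-0.823 to -0.0839) in MEFs. In 300 bp windows the interval also included 0 for the MYC-type E-box (CACGTG), the SP site (GGGCGGGG), the YY1 site (AAGATGGC), the NFI palindrome, the ETS site (CCGGAAGT), the NF-Y box (ATTGGCTG), the TCF/LEF site (CTTTGAT) and the p53 half-site core, in both lists.

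**Figure D3:**
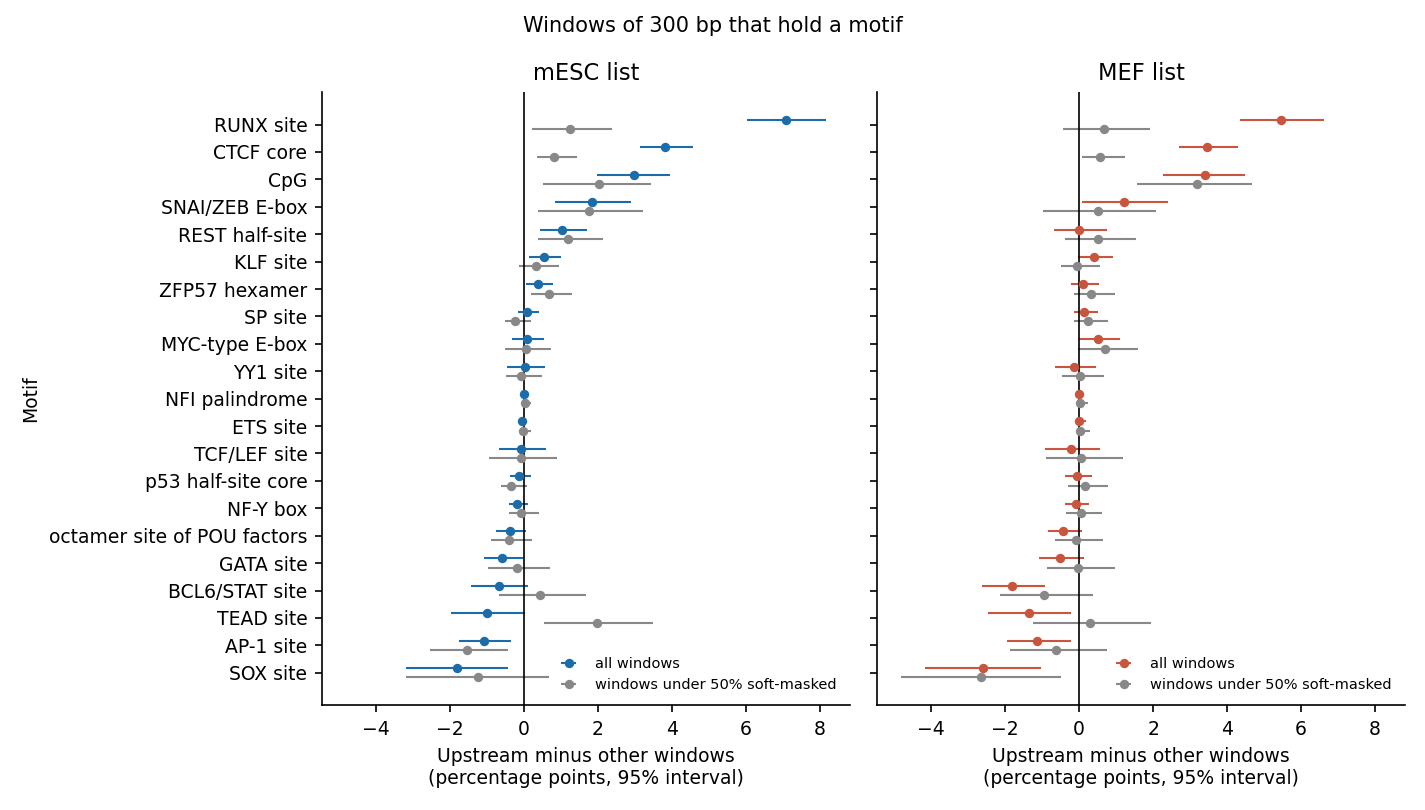
Share of 300 bp windows holding each of 21 motifs, upstream minus other autosomal intervals (x axis, percentage points with 95% intervals), for the mESC list (left) and the MEF list (right). Coloured points are all windows and grey points windows under 50% soft-masked. The RUNX and CTCF points lie farthest to the right in all windows, at 7.07 and 3.82 points in mESCs and at 5.46 and 3.46 points in MEFs, and nearer to 0 in the grey set.

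The RUNX and CTCF matches upstream lay largely in repeats, and often had the same letters around them. Of the 414 upstream mESC windows with a CTCF core, 316 (76.3%) held the single form CCAGAAGAGGGC, 281 (67.9%) also held the RUNX site and 87.2% were at least 50% soft-masked. Of the 278 such MEF windows, 218 (78.4%) held that form, 175 (62.9%) held the RUNX site and 86.3% were at least 50% soft-masked. The form also led elsewhere in the lists, in 69.8% of the other mESC and 66.1% of the other MEF windows with a CTCF core. Of those other windows, 58.9% in mESCs and 47.9% in MEFs held the RUNX site. The shares at least 50% soft-masked were 80.3% and 75.4%, so these traits were not particular to the upstream windows. Both sites together stood in 5.22% of upstream mESC windows against 2.28% of the others, and in 4.31% against 1.62% in MEFs. In windows under 50% soft-masked the CTCF core stood in 1.99% against 1.17% in mESCs and in 1.79% against 1.21% in MEFs, and the RUNX site in 8.65% against 7.41% in mESCs and in 7.95% against 7.29% in MEFs, where the interval of the RUNX difference included 0. Windows at least 50% soft-masked were set apart after seeing the data. There the CTCF core stood in 13.2% against 8.94% in mESCs and in 12.4% against 8.08% in MEFs. The RUNX site stood there in 28.3% against 19.2% in mESCs and in 23.9% against 16.3% in MEFs.

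The commonest 24-base word of the upstream windows held the RUNX site. Such words were picked for being common upstream, so their shares are a description. The most frequent word in either list and the next most frequent in mESCs are shown, with the RUNX site in capitals.
Word with the RUNX site: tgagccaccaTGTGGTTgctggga
Next word: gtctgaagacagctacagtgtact

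The first word stood in 440 upstream mESC windows (8.17%, 7.45 to 8.93), against 3.34% of the other mESC windows, and in 211 upstream MEF windows (5.19%, 4.53 to 5.92), against 2.00%. Of these windows, 94.8% in mESCs and 97.2% in MEFs were at least 50% soft-masked. The other word stood in 4.14% against 1.61% in mESCs and in 2.83% against 1.14% in MEFs. Such letters occur in the consensus of the B2 family of short interspersed elements, which is known in the mouse to carry CTCF sites. No repeat annotation was used here, so copies were not counted by family. At least one of the 6 commonest words stood in 18.1% of upstream mESC windows (17.0 to 19.1) against 8.12% of the others, and in 15.8% (14.7 to 17.0) against 6.99% in MEFs. In windows with none of the 6 words, the CTCF core stood in 3.87% (3.32 to 4.49) against 2.21% in mESCs and in 3.92% (3.29 to 4.62) against 2.28% in MEFs. The RUNX site stood there in 10.1% (9.19 to 11.0) against 7.95% and in 9.73% (8.76 to 10.8) against 8.01%. These windows are not free of repeats, since an exact word misses copies with other letters. Of the upstream windows with a CTCF core, 58.7% in mESCs and 51.8% in MEFs held a word. At least 50% soft-masked were 87.2% and 86.3% of them. The shares without the words therefore do not separate repeats from other sequence.

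By an overlap of at least 1 bp, the share of intervals found in both lists upstream differed from that elsewhere by less than its counting error. Of the upstream mESC intervals, 1933 (35.9%, 34.6 to 37.2) overlapped a MEF interval by at least 1 bp, against 36.6% of the other mESC intervals, and the share over all autosomal mESC intervals was also 36.6%. The difference was -0.715 points (-2.02 to 0.607). Of the upstream MEF intervals, 1941 (47.8%, 46.2 to 49.3) overlapped an mESC interval, against 47.2% of the others and 47.2% over the whole autosomal list, a difference of 0.552 points (-1.02 to 2.13). The mESC share was lower upstream, with an interval that excluded 0, when the overlap had to cover at least 50% of both intervals (-1.28 points, -2.50 to -0.0331) and among intervals under 50% soft-masked (-2.51 points, -4.33 to -0.654). The MEF differences under these settings had intervals that included 0. The share was higher upstream on 9 of 19 autosomes in mESCs and on 11 of 19 in MEFs. The mESC list is the longer one, so a MEF interval had more intervals to overlap. Within the upstream intervals the overlapping share followed the fold. With the intervals of each list ordered by fold and split into 4 groups of about equal size, from the lowest to the highest folds it was 25.5%, 33.9%, 40.3% and 43.9% in mESCs, and 35.1%, 44.0%, 53.2% and 58.9% in MEFs. The mean soft-masked share was also larger in the group of highest than in that of lowest folds, 58.1% against 46.5% in mESCs and 54.0% against 46.1% in MEFs, and its part in the overlap was not tested.

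**Figure D4:**
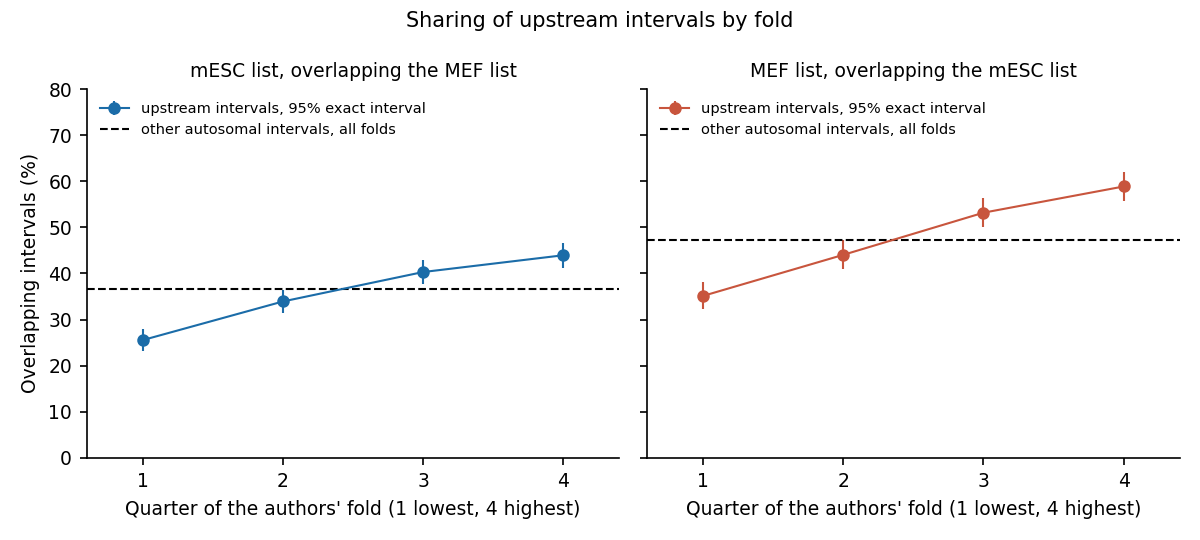
Share of upstream intervals that overlap the other cell type's list (y axis, %, with 95% exact binomial intervals) by group of the authors' fold (x axis, 1 lowest to 4 highest), for the mESC list (left) and the MEF list (right). The dashed line is the share of the other autosomal intervals over all folds. The points go from 25.5% to 43.9% in mESCs and from 35.1% to 58.9% in MEFs and cross the line between the second and the third group.

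The 1951 overlapping pairs of upstream intervals included 198 with identical start and end in both lists, and the 40050 pairs elsewhere included 3460. The mESC and MEF folds of the upstream pairs had a Spearman correlation of 0.437 across pairs, against 0.498 across the pairs elsewhere. The labels give one set of input libraries, which the folds of both lists may share, so these values are a description. Both folds were above 4 in 65 of the 1951 upstream pairs and in 1427 of the 40050 pairs elsewhere.

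Folds upstream were close to those elsewhere. The median was 2.38 upstream against 2.42 in the other mESC intervals, and 2.35 against 2.36 in MEFs. A fold above 4 was listed for 408 upstream mESC intervals (7.58%, 6.88 to 8.32), against 7.79% of the others and 7.78% over the autosomal list. It was listed for 209 upstream MEF intervals (5.14%, 4.48 to 5.87), against 5.75% of the others and 5.72% over the autosomal list. Neighbours within 5 kb were more frequent upstream in both lists. A further listed mESC interval was found within 5 kb of 49.6% of upstream mESC intervals (48.3 to 51.0) against 46.1% of the others, and a further MEF interval within 5 kb of 41.5% of upstream MEF intervals (40.0 to 43.0) against 39.6%. Downstream intervals had 47.7% (46.0 to 49.4) in mESCs and 38.3% (36.4 to 40.2) in MEFs. Intervals within 1 kb of a start site had 47.9% (44.9 to 50.8) and 40.6% (37.2 to 44.0). The shares were not adjusted for the higher density upstream. Within 1 kb the shares were 21.2% against 18.8% in mESCs and 16.8% against 16.6% in MEFs. With folds below the median left out, the 5 kb difference was 2.03 points (0.218 to 3.90) in mESCs and 1.15 points (-0.767 to 3.16) in MEFs, where it included 0.

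The highest fold upstream of a gene in mESCs was 92.1, at the Dock2 interval shown above, 3.51 kb upstream of a guanine nucleotide exchange factor of blood cells. The MEF interval that overlapped it had a fold of 5.22. The next were at Vmn2r27, a vomeronasal receptor gene, with 35.2, at Psma3, a proteasome subunit gene, with 29.8, and at Rbm6, an RNA-binding protein gene, with 27.1. The Olfr484 interval, by an olfactory receptor gene, had 24.4 and the Efcab5 interval 18.3. Of these 6 mESC intervals, those at Dock2 and Efcab5 overlapped a MEF interval, and the other 4 were listed in mESCs alone. Among all upstream mESC intervals 35.9% overlapped a MEF interval. The Dock2 and Rbm6 intervals shared words with 514 and 605 other upstream mESC intervals, and the other 4 with 0.

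In MEFs the highest fold was 84.4, at chr5:8372301-8372551, 4.27 kb upstream of Adam22, which encodes a neuronal membrane protein. It overlapped the Adam22 interval shown above, whose mESC fold was 14.5. The next MEF folds were 16.3 at the RIKEN gene 8030462N17Rik, 12.9 at Exoc2, an exocyst subunit gene, 12.7 at Olfr824, 12.6 at Vmn1r180 and 10.9 at Vmn1r215. Besides Adam22, intervals with a high fold in both lists lay upstream of Olfr824 (16.3 in mESCs and 12.7 in MEFs), Spire1 (8.13 and 9.80), Vmn1r180 (7.16 and 12.6) and Ogfrl1 (7.50 and 6.53). The Vmn1r180 interval had the same bounds in both lists and was 96.3% soft-masked.

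Seen from the genes, 16128 of 20807 autosomal protein-coding genes had some eligible sequence 2 to 10 kb upstream, and 8898 had the whole 8001 bp. At least 1 mESC interval lay upstream of 4496 genes (27.9%), at least 1 MEF interval upstream of 3612 (22.4%), and 5798 genes (35.9%) had an interval in either list. Both lists had one upstream of 2310 genes (14.3%), and in 1893 of these an mESC and a MEF interval overlapped. Most such genes had a single interval, 3392 in mESCs and 2915 in MEFs, and the most for one gene was 6 in mESCs and 5 in MEFs. Of the intervals, 91.8% in mESCs and 91.4% in MEFs lay upstream of 1 gene only. Between genes read in opposite directions lay 334 mESC and 262 MEF intervals, which cannot be given to either gene. A further start site lay within 2 kb of 212 mESC and 154 MEF intervals.

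Adam22 had the most, with 6 mESC and 4 MEF intervals. Pitpnc1, a phosphatidylinositol transfer protein gene, had 4 and 5, Klhl12, an adaptor of a ubiquitin ligase, 5 and 3, and the olfactory receptor gene Olfr76 3 and 5. There followed 7 intervals each for Srp68 of the signal recognition particle (4 and 3), the methyltransferase gene Smyd3 (4 and 3), the caveolar coat gene Cavin1 (3 and 4), the tight junction gene Cldn7 (3 and 4) and the pancreatic genes Clps (3 and 4) and Ctrb1 (5 and 2). The intervals of Clps were also upstream of Lhfpl5. Some intervals of Srp68 were also upstream of Galr2, some of Pitpnc1 upstream of Psmd12 and some of Cldn7 upstream of Slc2a4. At Pitpnc1 the mESC and MEF lists gave the same bounds for 3 intervals, and 2 of the intervals, at chr11:107477671-107477871 in mESCs and chr11:107476731-107477131 in MEFs, held both the RUNX site and the CTCF core.

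**Figure D5:**
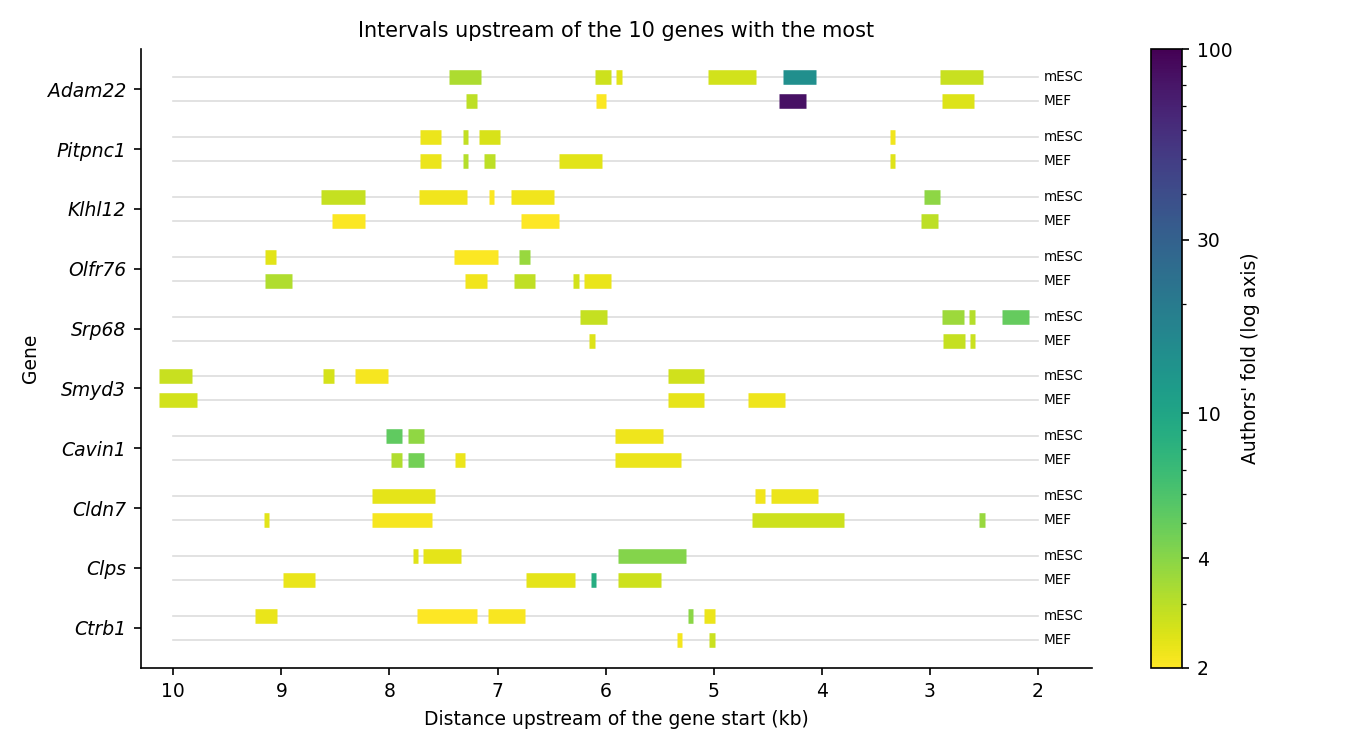
Positions of the intervals (bars, drawn to scale) 2 to 10 kb upstream of the start (x axis, kb) of the 10 genes with the most (y axis), with the mESC list above the MEF list for each gene. Colour gives the authors' fold on a log axis. The 2 darkest bars are the overlapping Adam22 intervals, with folds of 14.5 in mESCs and 84.4 in MEFs, and most other bars lie near 2.

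Of 29 genes of pluripotency with eligible sequence, 12 (41.4%) had an upstream mESC interval and 7 (24.1%) a MEF interval, against 27.9% and 22.4% of all genes. Dppa3, a maternal factor of early embryos, and Nanog had 2 and 2. Pou5f1, which encodes Oct4, L1td1, an RNA-binding protein gene, and Tdgf1, a Nodal co-receptor gene, each had 2 in mESCs and 0 in MEFs. In all, 8 genes of the list had intervals in mESCs alone and 3 in MEFs alone, which were Dppa2, Prdm14 and Sall1 with 0 and 1 each. Of all 16128 genes with eligible sequence, 2186 had intervals in mESCs alone and 1302 in MEFs alone. At Nanog the mESC intervals lay 2.96 and 9.21 kb upstream with folds of 2.11 and 2.26, and the MEF intervals 2.99 and 9.24 kb upstream with 2.61 and 2.72. Each mESC interval overlapped a MEF interval there. At Pou5f1 the mESC intervals had folds of 2.13 and 3.43. With so few genes the shares of single lists are given as counts and were not tested.

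Of 30 fibroblast and mesenchymal genes, 11 (36.7%) had an mESC interval, against 27.9% of all genes, and 7 (23.3%) a MEF interval, close to the 22.4% of all genes. Both lists had one in 6. Postn, a matrix protein gene, had 3 and 1, Sparc, which encodes the matrix protein osteonectin, 2 and 2, the mesenchymal regulator Twist1 2 and 1, and Col3a1 1 and 1. The Col3a1 intervals overlapped, at 3763 bp with a fold of 3.83 in mESCs and at 3801 bp with 3.23 in MEFs. Among 25 epithelial genes, which reprogramming fibroblasts switch on, 7 (28.0%) had an mESC and 5 (20.0%) a MEF interval, near the 27.9% and 22.4% of all genes. Cdh1 had 3 and 2, with folds of 2.50 to 4.52 in mESCs and of 2.07 to 2.95 in MEFs. Tjp1, a tight junction scaffold gene, had 2 and 0, and Cldn4 1 and 1, with folds of 3.52 in mESCs and 3.75 in MEFs.

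Chromatin repressor genes had an mESC interval in 10 of 33 cases (30.3%) and a MEF interval in 6 (18.2%), beside 27.9% and 22.4% of all genes. Suz12, a core subunit of a Polycomb repressive complex, had 2 and 2, with folds of 4.46 and 2.71 in mESCs and 2.38 and 2.11 in MEFs. Suv39h2, a histone methyltransferase gene of heterochromatin, had 3 and 0, Pcgf6 2 and 0 and the deacetylase gene Hdac2 1 and 1, while the DNA methyltransferase gene Dnmt3b had 0 and 2. In all, 8 of these genes had intervals in mESCs alone and 4 in MEFs alone, beside 2186 and 1302 of all 16128 genes. Cell cycle brakes had 5 of 21 (23.8%) in mESCs and 7 of 21 (33.3%) in MEFs, again beside 27.9% and 22.4%. In mESCs alone there were 2 such genes and in MEFs alone 4, beside the same 2186 and 1302 of all genes. The inhibitor genes Cdkn2c and Cdkn1b had 3 and 1 and 3 and 0, and the growth suppressor gene Tsc1 1 and 1, at separate places. The 3 Cdkn1b intervals in mESCs lay 3.56, 5.05 and 6.65 kb upstream with folds of 2.39, 2.04 and 2.06.

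In TGF-beta and BMP signalling, 6 of 30 genes (20.0%) had an mESC and 9 (30.0%) a MEF interval, and the 6 were among the 9. These and the counts of the remaining lists stand beside 27.9% of all genes in mESCs and 22.4% in MEFs. The receptor gene Bmpr2 had 2 and 2, Lefty1, a Nodal antagonist gene, 2 and 1, the signal transducer Smad3 1 and 2, and the activin receptor gene Acvr2a 1 and 1. In LIF, FGF and Wnt signalling the counts were 10 of 32 in mESCs and 8 of 32 in MEFs. The ligand genes Wnt3a and Wnt5a had 2 and 1 each, the transcription factor gene Tcf7 1 and 2 and the receptor gene Fzd2 1 and 1. Lineage transcription factors had 8 of 30 (26.7%) in mESCs and 10 (33.3%) in MEFs. Isl1 of heart and motor neurons had 2 and 1, and Eomes of mesendoderm and trophoblast and Gsc of the embryonic organizer had 1 and 1 each. At Eomes and Gsc the mESC and the MEF interval overlapped. Shares take no account of how much eligible sequence each gene has. Per Mb of it, an interval counting once for each gene, all genes had 57.1 in mESCs and 43.3 in MEFs. In that order, pluripotency genes had 81.7 and 43.2, fibroblast genes 72.7 and 38.8 and epithelial genes 70.4 and 58.7. Chromatin repressors had 71.2 and 40.7, cell cycle brakes 67.5 and 52.5 and TGF-beta and BMP genes 39.4 and 54.2. LIF, FGF and Wnt genes had 52.9 and 39.7, and lineage factors 42.4 and 47.1.

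Among 15 gene families, densities per Mb of eligible sequence, an interval counting once for each gene, spread on either side of the value for all genes, 57.1 in mESCs and 43.3 in MEFs. Vomeronasal receptor genes had 31.3 per Mb (24.6 to 39.2) in mESCs and 26.7 (20.5 to 34.1) in MEFs. Predicted genes with Gm symbols had 33.0 per Mb in mESCs and 27.2 (23.2 to 31.8) in MEFs, also below. Zinc finger genes with Zfp symbols had 68.3 (57.1 to 81.1) and 47.8 (38.5 to 58.7), intervals that reached the values for all genes. Of the 292 Zfp genes, 103 (35.3%) had an mESC interval, against 27.9% of all genes, and 74 (25.3%) a MEF interval, against 22.4%. Olfactory receptor genes, at 55.9 and 43.4 per Mb, were close to all genes. Of 28 Hox genes with eligible sequence, 2 had an mESC interval and 2 others a MEF interval (7.14% each, against 27.9% and 22.4% of all genes). Their densities were 18.2 per Mb (2.20 to 65.8) in mESCs and 27.3 (5.63 to 79.8) in MEFs, with intervals that included the value of all genes. Collagen genes had 33.8 per Mb (14.6 to 66.6) and 21.1 (6.86 to 49.3), with intervals that included the value of all genes.

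A few genes had several intervals in one list and none in the other. At least 3 mESC intervals and 0 MEF intervals lay upstream of 54 genes, and the reverse held for 9 genes. The 54 were 24.5% of the 220 genes with at least 3 mESC intervals, and the 9 were 7.89% of the 114 genes with at least 3 MEF intervals. Both shares were lower than those over genes with any interval. Of the 4496 genes with an mESC interval 2186 had none in MEFs, and of the 3612 with a MEF interval 1302 had none in mESCs. The mESC list is the longer one, so these counts are not set against each other. The 54 included Syt1, the calcium sensor of synaptic release, with 3 intervals and a highest fold of 14.9, Npr1, a natriuretic peptide receptor gene, with 3 and 12.6, and the zinc finger gene Glis2 with 3 and 7.45. Nlgn1, a synaptic adhesion gene, had 4 with a highest fold of 7.23, and Ap4e1 and Trappc9, genes of vesicle transport, had 3 each with highest folds of 6.97 and 6.77. The 9 included the co-chaperone gene Dnaja2 with a highest fold of 4.90, Tktl2, a transketolase-like gene, with 4.13, and Rab11fip1, Olfr1357, Gprin3 and Cndp2 with 2.50 to 2.72, each with 3 intervals. The lists keep only folds above 2, so an unlisted stretch may have had activity below that.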

How the data were processed

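The labels describe Ss-STARR-seq libraries, of which 56 were of mESCs, 64 of MEFs and 20 of the input plasmid pool. The authors deposited 1 interval list per cell type, in which each interval carries a linear fold (ratio) above 2. Bowtie2, SAMtools and the build hg38 stand in the submitters' processing notes, and the series text names mm10. All interval ends lay within mm10 chromosomes, so mm10 was used. The labels name neither the caller nor the direction of the fold, nor how replicates were joined. Positions are printed as listed. Whether starts count from 0 is not stated, so they may be off by 1 base, and sequences were read from the base after the listed start.

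Intervals were placed by their midpoint, and territories were counted base by base outside gene bodies. Repeats are the assembly's lower-case bases. Motifs were read from either strand of the 300 bp around the midpoint. Overlap meant at least 1 shared bp. Densities have exact Poisson, shares exact binomial and differences Newcombe intervals at 95%. Genes are named by most upstream intervals, highest folds, highest lower fold over both lists, gene lists and presence in one list. The scripts were tested on simulated data and used Python 3.11.15, numpy 2.4.6, pandas 2.3.3, scipy 1.17.1, statsmodels 0.14.6 and matplotlib 3.10.9. The rule, gene lists and motifs were chosen with earlier results of these data known. Intervals of 1 list are not replicates, so no p-value is given. Some genes and sequences that the naming rule picked are not reported here.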

Additional observations from a re-analysis of the deposited data

How the results depend on the processing

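Of 174 alternative values, 134 stayed within the main value's 95% interval (counts within 1.5 times), 39 moved further and 1 turned the sign of a difference whose interval had excluded 0. That was the TEAD site in MEFs, 0.294 points in windows under 50% soft-masked (an interval that included 0) and -1.36 points in all windows. Of 112 alternative differences 22 had the opposite sign to the main value, and in 21 of these the main interval included 0. The interval of the turned value excluded 0 for 3, the TEAD site in mESCs in windows under 50% soft-masked (1.97 points), and with whole intervals the REST half-site in MEFs (0.815 points) and the TCF/LEF site in mESCs (0.555 points). With only intervals at or above the median fold, 2563 upstream intervals remained in mESCs and 2009 in MEFs, upstream of 2407 and 1961 genes, the mESC density ratio was 1.13 and the mESC difference in neighbours within 5 kb was 2.03 points. With both lists limited in that way, the MEF difference in overlap was -1.33 points, against 0.552 points with all intervals. In unmasked sequence the density ratio was 1.07 in mESCs and 1.03 in MEFs. In intervals under 50% soft-masked the mESC overlap differed by -2.51 points and the mESC GC content by 0.922 points, and 3 motifs differed in MEFs. The cause of these shifts was not tested. The limit to intervals under 50% soft-masked in the GC comparison, the windows at least 50% soft-masked, those without the 6 recurrent words and the sequence not also downstream of another gene were chosen after seeing the data. No paired analysis was possible because the lists hold no values of single libraries. With 1 list per cell type there was no replicate to leave out, the depth of each fold is not known, and differences between cell types have no error beyond counting.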
